A study of Mus musculus with 4 samples.

Results

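Adrenergic receptors and the ATP receptor P2X1 of mouse popliteal vessels were followed as 9 genes: Adra1a, Adra1b, Adra1d, Adra2a, Adra2b, Adra2c, Adrb1, P2rx1 and P2rx4. They were taken by symbol from the gene lists of the deposited files, and all 9 were found among 32286 genes. RNA of single cells was counted as unique molecular identifiers (UMIs, 1 per captured molecule) in 3 libraries, and the levels below are UMIs scaled to 1000000 UMIs of the same cells (CPM). The mice were adult and carried EGFP and Cre at the Wt1 locus together with the Ai9 tdTomato reporter driven by CAG at ROSA26. All were given Evans blue in the footpad under anaesthesia, and no group without these alleles or the dye was included. Popliteal lymphatic vessels (PLV) were digested for 30 minutes with collagenase I, Dispase II, DNase and Liberase in 2 libraries, each from a pool of 2 mice. A further library, called mixed here, held hashtagged cells of PLV and of the vessels labelled BV from 1 pool of 2 mice, digested for 60 minutes without DNase or Liberase. Vessel, digestion, run and mice therefore cannot be told apart between the mixed and the PLV libraries.

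Sympathetic nerves release noradrenaline, ATP and neuropeptide Y onto vessel walls. Noradrenaline acts on alpha1 receptors, which couple to Gq and raise calcium, on alpha2 receptors, which couple to Gi and lower cyclic AMP, and on beta receptors, which couple to Gs and raise it. ATP opens P2X channels, and P2X1, encoded by P2rx1, is the main P2X channel of smooth muscle.

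PLV replicate 1 held 1909 cells, PLV replicate 2 held 516 and the mixed library held 994, with median depths of 3372, 4887 and 6162 UMIs per cell. No cell barcode was shared between libraries (0 shared). The hashtags were not used to assign cells to vessels. The median share of CMO1 among a barcode's tag UMIs was 79.7% in 891 kept cells (5th to 95th percentile 75.2% to 86.1%) and 79.8% in 67831 near-empty droplets (76.2% to 83.3%). Cells were named from marker genes, with the receptor genes kept out of the clustering. Of the 13 muscle markers, 8 to 13 were at least 2-fold above the other cells of the library in each muscle-like cluster. Muscle-like cells fell into kinds that are named here by their genes. Kind A was high in Ano1 and Hmcn2 and held 144 and 56 cells in the PLV libraries and 200 in the mixed one. Kind B was high in Pln and Sorbs2 and held 255, 53 and 43 cells. Kind C, high in Col12a1 and led by Ccn3, held 74 cells, all of them in the mixed library, so nothing about it has a replicate.

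Gene models were read from the GENCODE annotation of GRCm38. P2rx1 spans chr11:72999103-73015200 and Adra2c spans chr5:35278319-35281763, both on the plus strand. Adra2a spans chr19:54044151-54048982 and Adra2b spans chr2:127363208-127367221, also on the plus strand, and the annotated transcripts of Adra2b and Adra2c have 1 exon. Of the 9 members, 8 overlap no other annotated gene, and Adra1d overlaps the antisense gene Gm14285. RefSeq promoter windows of GRCm38.p6, 250 bases before to 50 after a gene's start, were matched for 7 of the 9 members (not for Adra1a or Adra1d). RefSeq starts differ from the GENCODE starts above: the Adra2a window lies wholly inside the printed gene span, and nearly all of the Adra2c window does. Those of P2rx1 (chr11:72998895-72999194), Adra2c (chr5:35278316-35278615), Adra2a (chr19:54045009-54045308) and Adra2b (chr2:127362929-127363228) are printed from the plus strand, because P2rx1 and Adra2c were high together in kind C, and Adra2a and Adra2b in kind A. Capitals mark the matches to short motifs, which were searched on both strands. The E box was searched as CANNTG. The GC box, a promoter element of many genes, was searched as GGGCGG. The TATA box, another core element of promoters, was searched as TATAAA. The CArG box was searched too, and no matches overlapped.
P2rx1: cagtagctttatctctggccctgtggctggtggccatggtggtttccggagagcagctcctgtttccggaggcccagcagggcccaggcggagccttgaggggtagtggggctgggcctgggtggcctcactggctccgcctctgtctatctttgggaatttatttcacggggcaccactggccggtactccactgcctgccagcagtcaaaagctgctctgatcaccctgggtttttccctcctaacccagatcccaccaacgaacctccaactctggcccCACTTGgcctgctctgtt
Adra2c: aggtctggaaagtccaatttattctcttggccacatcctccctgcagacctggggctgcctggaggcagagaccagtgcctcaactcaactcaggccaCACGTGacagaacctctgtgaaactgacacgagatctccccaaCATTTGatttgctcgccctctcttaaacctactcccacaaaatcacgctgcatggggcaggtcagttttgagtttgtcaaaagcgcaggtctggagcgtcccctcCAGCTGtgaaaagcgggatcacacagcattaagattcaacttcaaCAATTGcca
Adra2a: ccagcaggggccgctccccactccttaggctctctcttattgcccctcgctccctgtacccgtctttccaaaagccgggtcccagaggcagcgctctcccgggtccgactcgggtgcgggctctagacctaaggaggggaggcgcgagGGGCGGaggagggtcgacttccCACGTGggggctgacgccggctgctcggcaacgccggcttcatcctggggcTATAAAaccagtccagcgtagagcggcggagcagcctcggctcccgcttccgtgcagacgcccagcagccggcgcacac
Adra2b: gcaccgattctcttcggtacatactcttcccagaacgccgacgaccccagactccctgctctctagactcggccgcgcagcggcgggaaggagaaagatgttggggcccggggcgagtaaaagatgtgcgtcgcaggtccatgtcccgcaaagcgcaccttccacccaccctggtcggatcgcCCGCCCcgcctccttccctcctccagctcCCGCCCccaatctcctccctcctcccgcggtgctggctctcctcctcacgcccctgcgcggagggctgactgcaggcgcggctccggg
The P2rx1 window held 1 E box and the Adra2c window 4, and neither held a GC box or TATA box. The Adra2a window held 1 of each of these 3 motifs, and the Adra2b window held 2 GC boxes. None of the printed windows matched the CArG box, the element known from smooth muscle genes. Among 32851 windows of 300 bases, 72.3% held an E box, 35.7% a GC box, 13.6% a TATA box and 1.63% a CArG box. These shares count windows with at least 1 match, and the number of matches per window was not compared.

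P2rx1 was the most abundant member in muscle, with 953 of its 997 UMIs in muscle-like cells, and nearly all of them lay in kinds B and C. In kind B it was counted 268, 86 and 86 times (here and below in the order of the PLV replicates, then mixed), which are levels of 197, 187 and 276 CPM (219.7 ± 48.7, SD, n = 3). In kind A of the same libraries it was counted 2, 0 and 1 times (1.17 ± 1.43 CPM, SD, n = 3). Every kind B value was thus above every kind A value. Over the pooled libraries the level was 163-fold higher in kind B (95% Poisson interval 55.3 to 792), and the 3 kind A UMIs left it at 365-fold without PLV replicate 1 and 102-fold without the mixed library. In kind C it reached 617 CPM from 510 UMIs, 2.24-fold above kind B of the same library (95% interval 1.78 to 2.85). Intervals of this type cover counting error only.

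**Figure D1:**
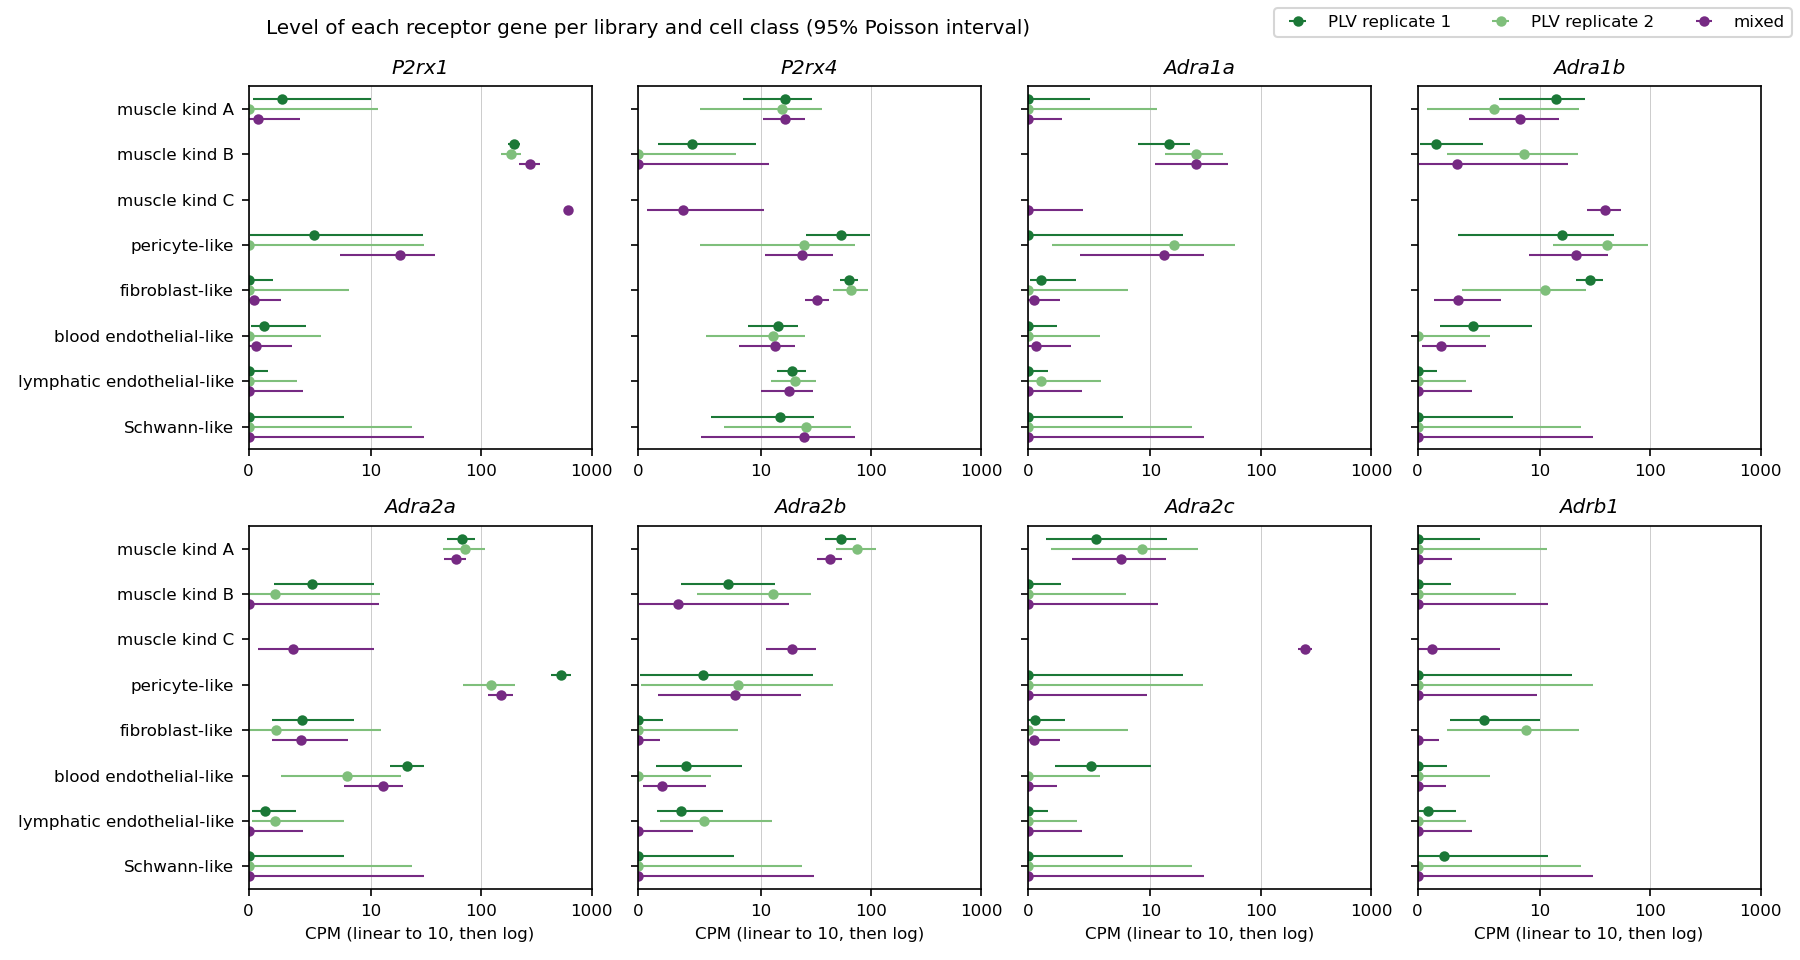
Levels of 8 receptor genes (CPM, linear up to 10 and logarithmic above) in each muscle kind and named class, with 1 point per library and 95% Poisson intervals. P2rx1 lies at 187 to 276 CPM in kind B and at 617 CPM in kind C, Adra2c at 253 CPM in kind C alone, and Adra2a highest in pericyte-like cells (122 to 532 CPM).

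The share of cells in which P2rx1 was seen told the same order. In kind B it was seen in 143 of 255, 33 of 53 and 30 of 43 cells, and in kind C in 71 of 74 (95.9%). Kind C cells were deeper, with a median of 10117 UMIs against 6565 in kind B of that library. With every cell thinned to 1500 UMIs, P2rx1 was seen in 26.8%, 30.2% and 32.6% of kind B cells and in 60.8% of kind C cells (95% exact binomial interval 48.8 to 72.0). Thinning therefore kept kind C above kind B. Lymphatic endothelial-like cells had no P2rx1 UMI among 4044047, which puts muscle-like cells at least 241-fold higher (floor of 3 UMIs over the pooled class). Without PLV replicate 1 this bound was 124-fold, and without the mixed library 133-fold. Droplets of low UMI count in the mixed library held P2rx1 at 28.0 CPM.

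**Figure D2:**
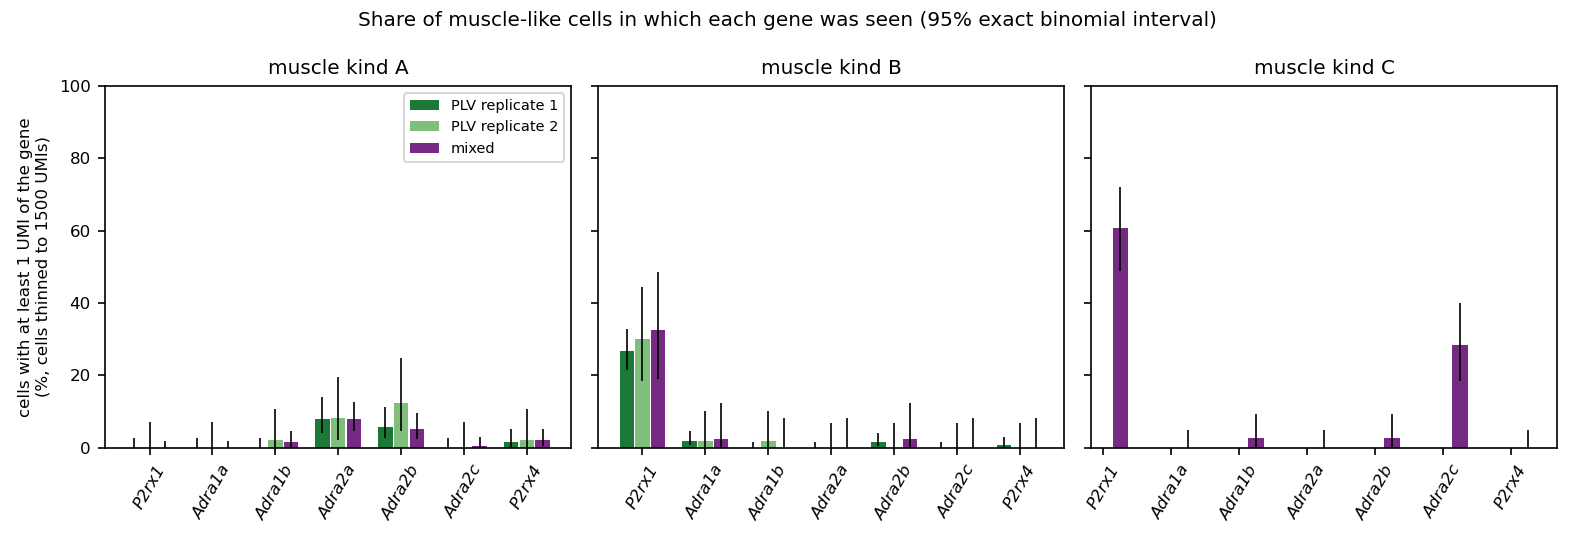
Share of cells (%) with at least 1 UMI of each gene in muscle kinds A, B and C after thinning every cell to 1500 UMIs. Bars stand for libraries and lines for 95% exact binomial intervals. P2rx1 bars reach 26.8% to 32.6% in kind B and 60.8% in kind C, and the Adra2c bar of kind C reaches 28.4%.

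P2rx4, an ATP-gated channel that is also known from endothelium and macrophages, had the opposite placement. Fibroblast-like cells held it at 63.1, 66.4 and 32.6 CPM (54.1 ± 18.6, SD, n = 3), and muscle-like cells at 8.63, 6.39 and 10.2 CPM. The groups did not overlap in any library pair, and pooled fibroblast-like cells were 5.42-fold above muscle-like cells (95% interval 3.95 to 7.57). Within muscle P2rx4 lay in kind A, with 12, 5 and 22 UMIs, against 6, 0 and 0 in kind B and 3 in kind C. Droplets of low UMI count in the mixed library held P2rx4 at 8.99 CPM (95% interval 4.11 to 17.1), which includes its kind A level there of 16.7 CPM. The part of RNA from outside these cells was not tested. P2rx4 levels in blood endothelial-like (12.8 to 14.3 CPM), lymphatic endothelial-like (18.1 to 20.4 CPM) and Schwann-like cells (14.8 to 25.6 CPM) fell between those of kind B and fibroblast-like cells. Macrophage-like cells, named in 2 libraries, held it at 119 and 62.0 CPM.

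Among the alpha1 receptor genes, Adra1a was confined in muscle to kind B, within the limits of its counts. It was counted 20, 12 and 8 times in kind B (14.7, 26.0 and 25.6 CPM) and 0 times in kind A of all 3 libraries and in kind C. The pooled level in kind B was at least 14.8-fold above that of kind A, from the same floor, or at least 6.12-fold without the mixed library. Pericyte-like cells held 0, 2 and 5 Adra1a UMIs, and a difference from muscle-like cells was not detectable (pooled ratio of pericyte-like to muscle-like 1.35, 95% interval 0.511 to 3.05). It was 2.26 without PLV replicate 1 and 0.576 without the mixed library, so its direction rests on single libraries. Adra1b, another alpha1 receptor, was spread more widely. It lay at 16.0, 40.7 and 21.1 CPM in pericyte-like cells and at 38.7 CPM in kind C, where it was 4.65-fold above kind A of the same library (95% interval 2.28 to 10.2). In kinds A and B its counts were 10, 2 and 11 against 2, 4 and 1, and these overlapped as CPM. The pooled ratio of kind A to kind B was 2.96 (95% interval 1.23 to 8.18, counting error only), with the opposite order in PLV replicate 2. Fibroblast-like cells held 52, 5 and 7 Adra1b UMIs, and in PLV replicate 1 a total of 44 lay in 1 cluster of 156 cells led by Smpd3, Mrgprg and Pi16. Adra1d gave 4 UMIs in all libraries together, which allows no comparison.

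The 3 alpha2 receptor genes took 3 different places. Among the tested classes Adra2a was highest in pericyte-like cells, with 100, 15 and 57 UMIs in 44, 28 and 62 cells (532, 122 and 150.5 CPM). Kind A muscle followed among these at 66.3, 71.5 and 58.3 CPM (65.4 ± 6.62, SD, n = 3), while 15 perineurial-like cells of PLV replicate 1, outside the tested classes, held it at 114 CPM (95% interval 59.0 to 199). In 10 perineurial-like cells of the mixed library it was at 52.5 CPM (10.8 to 154), from 3 UMIs in 1 cell. Kind B muscle lay at 5.14, 2.17 and 0 CPM. The order pericyte-like, kind A, kind B held in each library without overlap. Pooled ratios were 8.35 for pericyte-like over muscle-like cells (95% interval 6.69 to 10.4) and 16.7 for kind A over kind B (8.25 to 39.4). By library the first ratio was 20.2, 3.98 and 4.63, so none lay within the pooled interval, which covers counting error only. It was 4.47 without PLV replicate 1 and 13.4 without the mixed library. The ratio of kind A to kind B was 47.1 without PLV replicate 1, with 1 kind B UMI left.

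Adra2b lay mainly in muscle, with 75.4%, 81.1% and 92.4% of its UMIs in muscle-like cells. Kind A held it at 53.9, 74.6 and 42.4 CPM and kind B at 7.35, 13.02 and 3.20 CPM, again without overlap (pooled ratio 6.31, 95% interval 3.78 to 11.2). Kind C was between them at 19.4 CPM. Adra2a and Adra2b were seen together in 11 of 144, 5 of 56 and 13 of 200 kind A cells, against 7.08, 6.07 and 10.6 expected from the product of their shares. The pair thus shared a kind, while at this depth few single cells showed both.

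Adra2c belonged almost wholly to kind C. It was counted 209 times there (253 CPM), 10 times in kind A and 0 times in kind B of the mixed library. The ratio of kind C to kind A was 33.4 (95% interval 17.8 to 70.7). Low-UMI droplets of that library held Adra2c at 9.99 CPM (95% interval 4.79 to 18.4), no lower than kind A at 7.57 CPM (3.63 to 13.9). Fibroblast-like cells of the library held it at 0.473 CPM (0.0120 to 2.64). The part of free RNA in the kind A level was not tested, and the ratio carries that limit. Both PLV libraries held few copies in muscle, with 4 and 3 UMIs in kind A and 0 in kind B, and none was seen in pericyte-like cells. A cluster of 73 blood endothelial-like cells in PLV replicate 1, led by Sema3g, Cytl1 and Gja5, held 8 Adra2c UMIs. Blood endothelial-like cells of PLV replicate 2 and of the mixed library held 0. In kind C, 61 of 74 cells had an Adra2c UMI, 71 had a P2rx1 UMI and 59 had both. With shares this high most cells must show both, so nothing is read from the overlap.

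Adrb1, the beta1 receptor gene, was near 0 in muscle, where 1 UMI was counted in all muscle-like cells. Fibroblast-like cells held 10 and 4 UMIs in the PLV libraries and 0 in the mixed library. The 4 of PLV replicate 2 were all in 1 cell, and 8 of the 10 in PLV replicate 1 lay in 1 cluster of 96 cells led by Myoc, Gpx3 and Ccdc80. The counts of this gene were under the edgeR filter. DESeq2, without that filter, gave no adjusted p between the mixed and PLV libraries in muscle-like cells (unadjusted p = 0.771).

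The counts were then tested across libraries. UMIs were summed per class and library and fitted with edgeR's quasi-likelihood test with the library as a block and Benjamini-Hochberg adjustment over all genes tested, at a threshold of 0.05. Separate mice made each library, but only 3 libraries exist and 2 share a protocol. Cells of the other classes could also be compared as their sum, an alternative added after the data were seen, since the mean of log levels falls far when a class is at 0. In muscle-like cells against the mean of the 5 other classes, 6 members passed the filter and all 6 passed the threshold, 5 of them higher, where 32.8% of 10499 genes passed and 19.6% were higher. A member that entered this fit through muscle alone had to differ, so the count is not read further. Against the summed other classes, 3 of 5 members passed, where 40.4% of 11158 genes did, and this count is not read further either, since P2rx1 was near 0 outside muscle. P2rx1 was higher by a log2 difference of 7.55 ± 0.32 (SE), given for that reason as an effect size only. Adra2b was higher by 3.85 ± 0.31, also an effect size only, since it had few UMIs outside muscle and passed the filter through muscle. P2rx4 was lower, at -1.62 ± 0.23 (adjusted p = 0.00193). Adra1b (0.83 ± 0.59, adjusted p = 0.315) and Adra2a (0.80 ± 0.27, adjusted p = 0.0532) passed only against the mean of log levels. Adra1b also lost that call without PLV replicate 2 (adjusted p = 0.0536) or without the mixed library (adjusted p = 0.120).

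Between muscle-like and pericyte-like cells, 3 of 6 members tested differed, where 12% of genes did. P2rx1 was higher in muscle by a log2 difference of 4.22 ± 0.40 (SE, edgeR). This is an effect size only, since P2rx1 entered the fit through muscle, with 1, 0 and 7 UMIs in pericyte-like cells. The count above includes it and is not read further. Adra2a was lower in muscle (-2.82 ± 0.37, adjusted p = 5.99e-05), and so was P2rx4 (-1.69 ± 0.38, adjusted p = 0.00567). The P2rx4 call was lost without PLV replicate 1 (adjusted p = 0.252) and without PLV replicate 2 (adjusted p = 0.0596), and the other calls held without any one library. Muscle markers in pericyte-like cells summed to 9121, 10042 and 15332 CPM, against 41618 CPM in muscle-like cells of PLV replicate 1, and their part in these differences was not tested.

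Each of the 5 other classes was also set against the rest. Against the mean of log levels 8 of 30 tests passed, where the share of all genes that passed was 14.3% in pericyte-like, 34.7% in fibroblast-like, 29% in blood endothelial-like, 32.8% in lymphatic endothelial-like and 32.9% in Schwann-like cells. In pericyte-like cells against the sum of the others, where 18.2% of genes passed, Adra2a was higher (log2 4.08 ± 0.33, adjusted p = 5.86e-10, edgeR) and so was Adra1b (1.61 ± 0.56, adjusted p = 0.0449). P2rx1 was higher there against the mean of log levels (3.15, adjusted p = 0.00845) and lower against the sum (-2.58 ± 0.46, adjusted p = 0.000127). That mean includes lymphatic endothelial-like and Schwann-like cells, which had no P2rx1 UMI, and that sum includes the muscle-like cells. Fibroblast-like cells were higher in P2rx4 against the sum (2.11 ± 0.23, adjusted p = 0.000382), where 29% of genes passed.

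Kind A and kind B differed in all 3 members that passed the filter, where 31.6% of 7076 genes differed. Each of the 3 had few UMIs in one kind and passed the filter through the other, so the count is not read against that share. The differences are for the same reason given as effect sizes only. P2rx1 was lower in kind A (log2 -7.52 ± 0.36, SE, edgeR), Adra2a was higher (3.99 ± 0.42) and Adra2b was higher (2.67 ± 0.35). Each had its direction in 3 of 3 libraries. The receptor genes took no part in the clustering, but genes that vary with them did, so the kinds were not drawn independently of expression. Mast cell markers, which sum to 71.8, 106 and 276 CPM in kind A, summed to 0.735, 0 and 0 CPM in kind B, and their part was not tested. Adra2a and Adra2b had 0 UMIs in the 23 mast-like cells of PLV replicate 1, which allows up to 81.5 CPM. At Leiden resolution 2 a cluster of 55 cells of the mixed library, led by the mast cell genes Mcpt4, Cma1 and Cpa3, was named mast-like and held Adra2a at 46.8 CPM and Adra2b at 35.1 CPM. The largest muscle-like cluster of that library at this resolution, of 116 cells, held them at 56.2 and 42.8 CPM and had 0 P2rx1 UMIs.

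**Figure D3:**
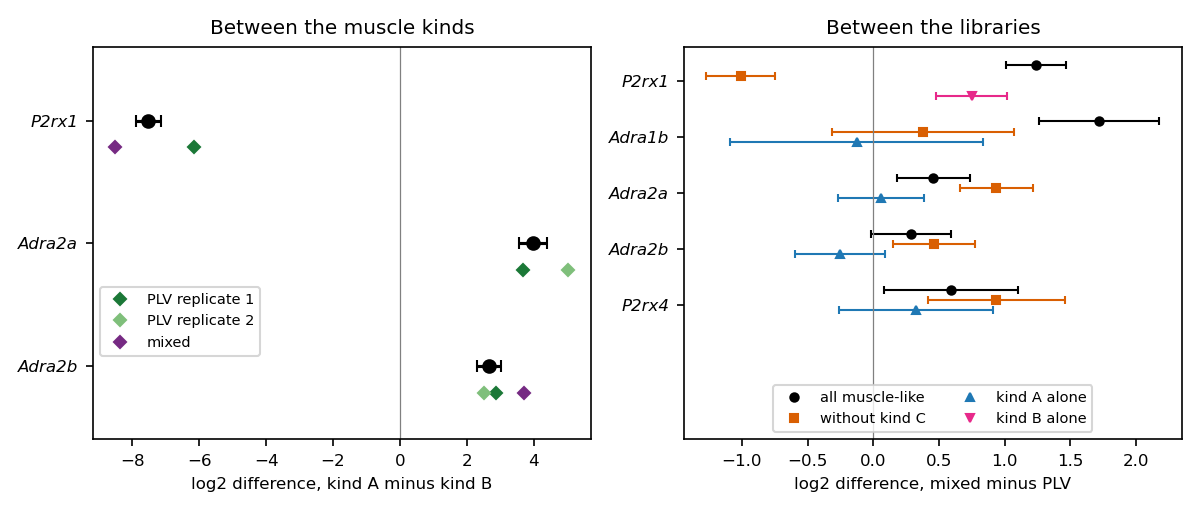
Left, log2 difference between kind A and kind B for the 3 members tested, with edgeR estimates and SE in black and the ratio of CPM in each library as diamonds (P2rx1 of PLV replicate 2 and Adra2a of the mixed library have a count of 0 in one kind and no diamond). Right, edgeR log2 difference with SE between the mixed and the PLV libraries in all muscle-like cells, without kind C and within single kinds: P2rx1 is at 1.24 in all muscle-like cells and at -1.01 without kind C.

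Between the mixed library and the PLV libraries, 3 of 7 members tested were higher in muscle-like cells of the mixed library, where 13.5% of 10762 genes differed and 7% were higher. Adra2c passed the filter through the mixed library alone, so this count too is only a description. The mixed arm is 1 library, so the spread behind these p-values is that of the 2 PLV libraries, and the mixed sum was assumed to vary like them. Adra2c was at 89.1 CPM against 1.92 and 3.83, given here as levels. P2rx1 was at 243 CPM against 130 and 110 (log2 1.24 ± 0.23, SE, adjusted p = 0.000708), and Adra1b was at 17.9 CPM against 5.76 and 7.67 (1.72 ± 0.46, adjusted p = 0.0138). With DESeq2 the log2 difference was 1.25 for P2rx1 and 1.68 for Adra1b, and the Adra1b call was lost. These differences moved with kind C, which supplied 209 of 219 Adra2c, 510 of 597 P2rx1 and 32 of 44 Adra1b UMIs. Without kind C, P2rx1 was lower in the mixed library (-1.01 ± 0.26, adjusted p = 0.0105), Adra1b and Adra2c no longer passed, and Adra2a was higher (0.94 ± 0.28, adjusted p = 0.0271). Both calls were lost with DESeq2, at -0.997 for P2rx1 (adjusted p = 0.372) and 0.91 for Adra2a (adjusted p = 0.767), where 0 members passed and 1 had an unadjusted p under 0.05. Kind B made up 255 of 399 and 53 of 109 muscle-like cells of PLV but 43 of 317 of the mixed library, and the part of this mix in the contrast was not tested. Within kind A alone 0 of 4 members tested passed with edgeR, with 0 at an unadjusted p under 0.05 and 0 with DESeq2. Within kind B alone 0 of 2 passed with edgeR, with 1 at an unadjusted p under 0.05 (P2rx1, log2 0.75 ± 0.27, adjusted p = 0.113) and 0 with DESeq2.

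Genes around these receptors were read from lists of the same pathway. In muscle-like cells against the mean of the other classes the median log2 difference over all genes was -0.01, and as above 32.8% of genes passed and 19.6% were higher, which the counts of the short lists below stand beside. As with the members, a gene that entered this fit through muscle alone had to differ, so the list counts are not read further. Adenylyl cyclases, the enzymes that make cyclic AMP, were higher for 4 of 5 genes tested and lower for 1 (median 1.62). Adcy5 was furthest (log2 5.49 ± 0.28, SE, edgeR), given as an effect size only. Among G protein alpha subunits and phospholipase C beta genes 5 of 14 were higher and 0 lower (median 0.26), including Gnao1 and Gna14 (3.69 and 4.01). Of catecholamine and neuropeptide Y handling genes 2 of 4 were higher, and both are likewise given as effect sizes only. They were Slc22a3, the extraneuronal monoamine transporter (6.76 ± 0.41), and Maob, a monoamine oxidase (4.88 ± 0.38). Of 5 other receptors tested, the neuropeptide Y receptor gene Npy1r was higher (5.03 ± 0.43, adjusted p = 5.12e-08) and 1 was lower. Npy1r was not particular to muscle, with 673, 668 and 548 CPM in muscle-like against 1064, 1074 and 734 CPM in pericyte-like cells. Receptor kinases and arrestins gave 1 lower of 5, the beta-arrestin gene Arrb1 (-1.98). Nucleotide enzymes gave 2 higher of 5, among them the ATP-degrading ectoenzyme gene Entpd1 (3.92), and 1 lower, Entpd2 (-2.29).

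Between kinds A and B, the transporter and monoamine oxidase genes Slc22a3, Maob and Maoa were higher in kind A. Slc22a3 was at 203, 202 and 120 CPM in kind A and at 11.0, 19.5 and 6.41 CPM in kind B (log2 3.77 ± 0.26, SE, edgeR). Maob was at 141, 127 and 113 CPM against 5.14, 2.17 and 0 (4.98 ± 0.35). Both genes were low in kind B and passed the filter through kind A, so these differences are effect sizes only. Maoa, the other monoamine oxidase gene, was higher too (1.36, adjusted p = 0.00417). Entpd1 was lower in kind A (-1.76 ± 0.18, adjusted p = 4.24e-08). Of 4 adenylyl cyclases tested, 1 was higher in kind A, the calcium-stimulated Adcy1 (6.63 ± 0.61, again as an effect size only), and 1 was lower, Adcy9 (-1.82 ± 0.25, adjusted p = 4.74e-06). Of 14 G protein alpha and phospholipase C beta genes, 5 were higher and 4 lower, where 31.6% of all genes passed. The inhibitory G protein gene Gnai1 was higher (2.62 ± 0.23, adjusted p = 4.21e-09). The other higher genes were Gnaz (1.33), Gnaq (0.95), Plcb4 (0.76) and Gnao1 (0.64), and the lower genes were Plcb1 (-1.97), Plcb3 (-1.93), Gna12 (-1.54) and Gna11 (-0.79). The Gq family genes Gnaq and Gna11 thus went opposite ways. Npy1r did not pass (-0.16, adjusted p = 0.471), at 426 to 712 CPM in both kinds and 571 CPM in kind C.

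**Figure D4:**
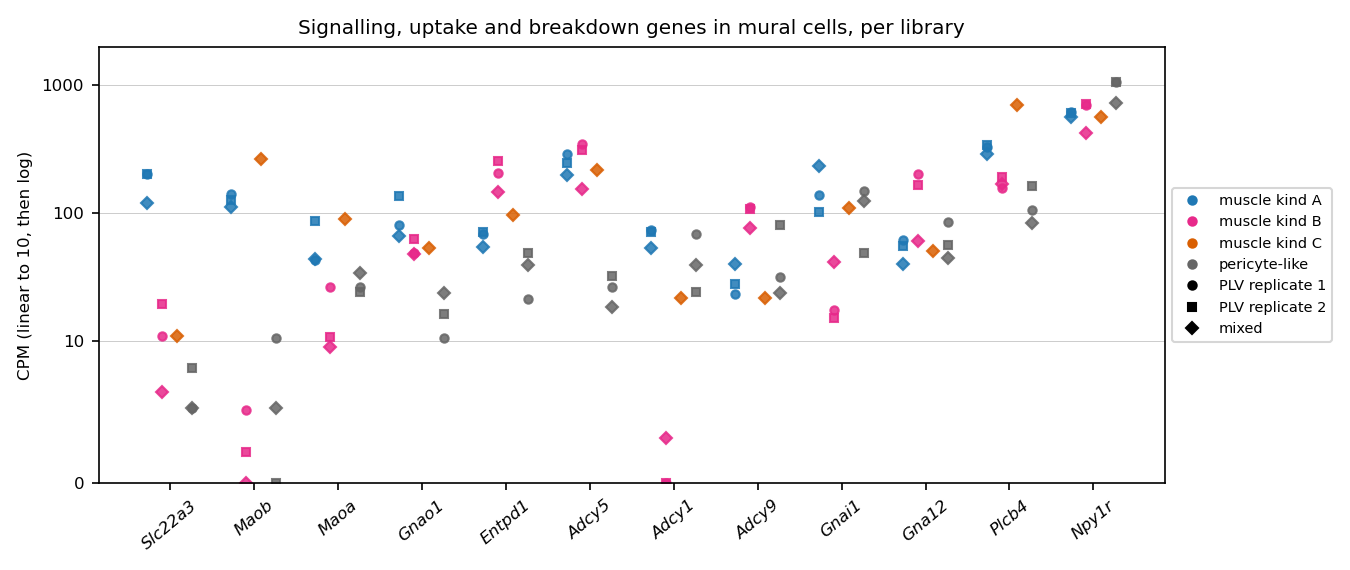
Levels (CPM, linear up to 10 and logarithmic above) of 12 genes of signalling, uptake and breakdown in muscle kinds A, B and C and pericyte-like cells, 1 point per library. Slc22a3 (120 to 203 CPM) and Maob (113 to 141 CPM) in kind A lie above their kind B points, and Maob of kind C lies at 267 CPM.

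For members with at least 50 UMIs, the genes of most similar level across the 18 sums of class and library were listed as a description (Pearson's r of log2(CPM + 10), sums of 1 library sharing its depth and run). P2rx1 was nearest to Sh3bgr (r = 0.98), Slc6a17 (0.97) and Actc1 (0.97), and Adra1a to 9530034E10Rik (0.96), Pip5k1b (0.95) and Slc38a11 (0.94). Adra2a was nearest to Htr7 (0.96), Pakap (0.94) and Heyl (0.93), while Adra2b was nearest to Fbxl22 (0.96), Slc22a3 (0.96) and the smooth muscle coactivator gene Myocd (0.96). Adra1b was nearest to Hoxc4 (0.90), Tbx18 (0.89) and Atp1b1 (0.89), and P2rx4 to Nid1 (0.92), Cotl1 (0.92) and Lamp2 (0.89). Adra2c was nearest to Tpsb2 (0.98), Mrgprb1 (0.97) and Lilr4b (0.97), of which Tpsb2 and Mrgprb1 are mast cell genes. In the mixed library mast markers summed to 276 CPM in kind A and 2.42 CPM in kind C, where Adra2c lay, and the muscle-like sum of that library holds both kinds.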

How the data were processed

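Single-cell RNA was measured in 2 PLV libraries and 1 mixed library. The values deposited by the authors are raw UMI counts. Cell Ranger made them, per the file headers (6.1.2 for the PLV libraries, 4 for the mixed one), and the submitters' processing notes name GRCm38 and Seurat. The PLV matrices held 2649 and 730 barcodes and the mixed matrix 896360, so the cell filters acted on different starting sets. The kit reads transcripts at their 3' end.

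Barcodes were kept with at least 500 UMIs, 300 genes, at most 15% mitochondrial and at most 20% haemoglobin UMIs, and scrublet's predicted doublets (10, 3 and 3 barcodes) were dropped. Doublets that the caller missed may remain. Each library was clustered alone in scanpy 1.11.5 (2000 variable genes, 50 components, 15 neighbours, Leiden resolution 1), with 79 listed genes held out, the members among them. A cluster was called X-like where at least 3 of a class's markers exceeded the remaining cells 2-fold, with 20 CPM added to each level, and its 10 leading genes did not favour another class.

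UMIs were summed per library and class and tested in edgeR 4.0.16 (quasi-likelihood test, TMM, filterByExpr, Benjamini-Hochberg adjustment at 0.05), with the library as a block, since classes of 1 library share its mice, and with DESeq2 1.42.0 as an alternative and SEs taken from the F statistic. The fits were tested on simulated counts in which 200 of the genes tested changed 4-fold. The changed genes were drawn from those of higher mean count. All sums shared the same expected profile, and the dispersion was set at 0.05. Members of low count, such as Adra1a with 55 UMIs in all, lie under that range, so the rates below do not cover them. For muscle against other classes 100% were recovered and 3.85% of calls were false, and for kind A against kind B 99.5% and 3.40%. For mixed against PLV in muscle 88% were recovered and 7.85% of calls were false, above the threshold of 0.05. Where a class has no UMI, a fitted difference depends on the prior count. Members' differences for such a class itself are not given. Contrasts with the mean of log levels are given, and they do average over such classes. Alternatives were stricter cells, kept doublets, other resolutions, no filter, no block and each library left out. Library ratios beside pooled ones were added after the data were seen. Gene models were GENCODE's for GRCm38. Named were all 9 members, genes of 6 pathway lists past the threshold with at least 10 UMIs, and for members with at least 50 UMIs the 3 most alike genes. Adrb3 and P2rx5 were chosen after their values were seen. The members and lists were chosen with earlier results of these data known. The hashtag counts were used only to compare tag shares. Some results are not reported here.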

Additional observations from a re-analysis of the deposited data

Results flagged for a closer look

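Signal of the members was also counted in cell groups outside the tested classes, above the 3 UMIs that a count of 0 allows. P2rx4 gave 39 UMIs in macrophage-like cells of PLV replicate 1 and 11 in those of the mixed library. It gave 7 in T or NK-like cells, 5 in keratinocyte-like cells and 4 in B-like cells of PLV replicate 1, and PLV replicate 2 had 11 in 37 unnamed cells led by Cd74 and H2-Aa.

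P2rx1, known from platelets as well as muscle, gave 4 UMIs, all in 1 cell, in an unnamed cluster of 9 cells led by the platelet genes Nrgn, Pf4 and Ppbp. It gave 6 UMIs in 6 of 23 mast-like cells, 4 in the unnamed cluster of 37 cells and 16 in keratinocyte-like cells of PLV replicate 1. That keratinocyte-like cluster of 122 cells also had 6 of 11 pericyte markers at least 2-fold above the other cells, and the part of other cells in its P2rx1 was not tested. At Leiden resolution 2 the keratinocyte-like cluster of that library, of 94 cells, held 1 P2rx1 UMI (3.54 CPM). Adra2a gave 12 UMIs in 6 of 15 perineurial-like cells and 4 in the keratinocyte-like cells.

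Adra1b went opposite ways in the libraries between muscle-like and fibroblast-like cells. It was at 5.76 and 7.67 CPM in muscle-like and 28.3 and 11.1 CPM in fibroblast-like cells of PLV, against 17.9 and 3.31 CPM in the mixed library, where kind C held 32 of the 44 muscle UMIs. The difference between the libraries was not tested.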

How the results depend on the processing

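Each comparison was repeated under the alternatives above. In muscle-like cells against the mean of the other classes 5 to 7 members passed, where 19.5% to 38.5% of all genes did, except that 3 passed against the summed other classes (40.4% of genes), an alternative chosen after seeing the data. For the non-muscle classes that alternative gave 18 calls of 24 (31.1% over all genes) in place of 8 of 30 (28.7%), and leaving out any one library gave 5 (19.1% to 25.9%). Against pericyte-like cells 5 of 9 members passed without the filter (8.56% of all genes), and between kinds A and B 6 of 8 did (17.5%), some of them with 0 UMIs in one kind. Leaving out each library in turn gave 5 to 6 members in muscle, 2 to 3 against pericyte-like cells (4.75% to 11.6% of genes) and 3 to 5 between kinds (24.8% to 31.3%). Leaving out the replicate block changed none of the counts of members by over 1.5 times. No paired analysis was possible between the mixed and PLV libraries because the label of the mixed library gives no replicate number.

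Between the mixed and PLV libraries 0 members passed in kind A alone (5.33% of genes) and 0 in kind B alone (2.97%). For these results the cause was not tested. Directions turned for P2rx1 without kind C (-1.01), Adra1b and Adra2b in kind A alone (-0.12 and -0.25), Adra1a in kind B alone (0.71), and Adra2a and Adra2b at Leiden resolution 0.5 (-0.25 and -0.34). Adra1a against pericyte-like cells turned with DESeq2 (0.23) and ranged from -0.94 to 1.12 with a library left out. Adra1b against the summed other classes was -0.24 without the mixed library. Of the turned values named so far P2rx1 without kind C passed the threshold. In the non-muscle classes the summed comparison turned 6 directions, and 4 of these passed. They were P2rx1 in pericyte-like cells (3.15 to -2.58), Adra2b in blood endothelial-like (0.68 to -2.26, adjusted p = 0.0156) and lymphatic endothelial-like cells (1.07 to -1.81, adjusted p = 0.0157) and Adra1b in blood endothelial-like cells (0.26 to -1.85, adjusted p = 0.0238). The sum of the other classes includes the muscle-like cells, and the mean of log levels takes in classes with no UMI of the gene. The pericyte-like class was not named in PLV replicate 1 at 10% mitochondrial UMIs or with doublets kept, so comparisons with it were not run there. At resolution 0.5 the muscle-like cells of PLV replicate 1 formed 1 cluster, and the kinds were compared in the other libraries only. Depth limits Adra1a, Adra1d and Adrb1 most, with 55, 4 and 20 UMIs in all.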

Other observations

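Receptor genes outside the 9 members also split between the muscle kinds. Adrb3, a beta receptor gene, was counted 5, 3 and 20 times in kind A (PLV libraries first, then mixed), 0 times in kind B of all 3 and 3 times in kind C. P2rx5, another P2X channel gene, was counted 15, 6 and 4 times in kind B, 0 times in kind A of all 3 and 1 time in kind C. Both genes were picked after their counts were seen, and neither was tested.

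At Leiden resolution 2 the pericyte-like cells of the mixed library split. The larger cluster, of 37 cells, held 52 Adra2a and 0 P2rx1 UMIs. The smaller, of 24 cells, held 4 Adra2a and 7 P2rx1 UMIs. Its leading genes included Rgs5 but also Tesc and Ptp4a3, which are among those of kind B in that library, so its name is less sure. The clusters come from 1 library and were not tested.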
